A study of Mus musculus with 16 samples.

Results

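The neurexins, neuroligins and leucine-rich repeat transmembrane proteins (LRRTMs) were followed through the hippocampal RNA-seq of the learned helplessness series as 8 genes chosen by name: Nrxn2, Nrxn3, Nlgn1, Nlgn2, Nlgn3, Lrrtm1, Lrrtm2 and Lrrtm3. All transcripts with one of these gene names were taken, which gave 42 of the 80137 transcripts and 7 of the 18287 gene names measured. Nrxn2 had 14 transcripts, Nrxn3 had 13, Nlgn1 had 5, Lrrtm3 had 4, Lrrtm1 had 3, Nlgn2 had 2 and Lrrtm2 had 1. Nlgn3 was not analysed here. The libraries came from 16 wild-type C57BL/6 mice aged 3 months, 4 in each group, with both hippocampi of a mouse combined into 1 library. Homecage (HC) mice stayed in their cages and were neither tested nor handled for the procedure. Control (Ctrl) mice went through 30 trials of escapable foot shock at 0.4 mA, and had been placed in the shuttle box without shocks the day before. Helpless (LH) mice and mice that did not become helpless (NLH) had first received 180 inescapable shocks of 0.4 mA and then the same 30 trials, and the study separated them afterwards by their escape failures and latencies, so that LH and NLH were sorted by behavior and not assigned.

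Neurexins are presynaptic cell surface proteins, and neuroligins and LRRTMs are among their postsynaptic partners. The binding of both sides across the cleft organizes the synapse, where neuroligin 1 is known mainly from excitatory synapses, neuroligin 2 from inhibitory synapses and LRRTMs from excitatory synapses. Each neurexin gene uses an upstream promoter for the long alpha form and an internal promoter for the short beta form. Alternative splicing sets which partner binds: LRRTMs prefer neurexins that lack the insert of splice site 4 (SS4), whereas cerebellins bind neurexins that carry it. Neuroligin 1 is spliced at sites A and B, and the insert at site B lowers its binding to alpha neurexins.

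Inserts that separate the splice variants of Nrxn3 and Nlgn1 are shown first, as coding-strand sequence of GENCODE vM21 transcripts on GRCm38. The SS4 exon of Nrxn3 has 90 bases, or 30 codons, at chr12:90199147-90199236 on the plus strand, all shown in capitals.
Nrxn3 SS4 exon: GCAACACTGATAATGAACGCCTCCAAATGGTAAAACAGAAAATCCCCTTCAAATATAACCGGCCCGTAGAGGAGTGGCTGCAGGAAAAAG
In Nlgn1, the insert at site A is an exon of 60 bases, or 20 codons, at chr3:25920178-25920237 on the minus strand. The insert at site B is an extension of an exon by 27 bases, or 9 codons, at chr3:25439865-25439891 on the minus strand. The insert is in capitals, with 12 bases of the transcript on each side.
Nlgn1 site A: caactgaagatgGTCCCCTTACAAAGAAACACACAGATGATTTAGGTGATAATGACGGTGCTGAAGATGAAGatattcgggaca
Nlgn1 site B: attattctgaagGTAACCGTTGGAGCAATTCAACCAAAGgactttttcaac

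Values are FPKM, the fragments assigned to a transcript per kilobase of its length and relative to the fragments of the library. A gene was summed over all transcripts with its name. Depth is not given with FPKM. From the steps between low values it was estimated as 20150000 to 38050000 fragments per mouse, on an assumed fragment length of 200 bases. LH replicates 3 and 4 stood apart from the other mice. They had 10846 and 15504 transcripts at an FPKM of 0, against 4872 to 7352 in the other 14 mice, and 17 of the 42 transcripts studied here were under 0.001 FPKM in each of them, against 7 to 11 elsewhere. Their estimated depths were 24700000 and 20150000 fragments, while LH replicate 2, at 23700000, had 6852 transcripts at 0. Many of the LH differences are therefore given also without these mice. All 5 neuronal markers and all 6 markers of the hippocampal subfields had values in these libraries, though the subfield marker Wfs1 was 0.194 and 0.00225 FPKM in LH replicates 3 and 4, below every other mouse, and the summed subfield markers ranged from 48.6 to 70.6 FPKM. In tissue RNA, fewer cells of a type and less RNA per cell cannot be told apart.

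The FPKM sums, which are scaled by length and include noncoding entries, placed Nrxn2, Nrxn3, Nlgn1 and Nlgn2 above Lrrtm1, Lrrtm2 and Lrrtm3. For Nrxn2 this did not hold for coding transcripts alone. These summed to 1.83 to 4.12 FPKM by mouse, below the coding Lrrtm2 transcript at 4.85 to 12.2 FPKM. Over the 16 mice, the mean was 15.7 ± 3.99 (SD) for Nrxn3, 12.9 ± 1.83 for Nlgn1, 10.4 ± 1.71 for Nrxn2, 9.64 ± 1.49 for Nlgn2, 7.21 ± 2.10 for Lrrtm2, 5.75 ± 0.760 for Lrrtm1 and 4.40 ± 0.710 for Lrrtm3. Neighbours in this order differed by less than the larger of their SDs for Nrxn3 and Nlgn1, for Nrxn2 and Nlgn2, and for Lrrtm2 and Lrrtm1. The order of Nlgn1 over Nrxn2 and of Lrrtm1 over Lrrtm3 held in 15 of 16 mice each. That of Nlgn2 over Lrrtm2 held in 13, and the exceptions were LH replicates 1, 3 and 4. Of the 42 transcripts, 19 had a mean of at least 1 FPKM, and 13 were above 0.001 FPKM in every mouse. The annotation classes 22 as protein coding, 10 as processed transcripts, 7 as retained introns and 3 as targets of nonsense-mediated decay.

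**Figure D1:**
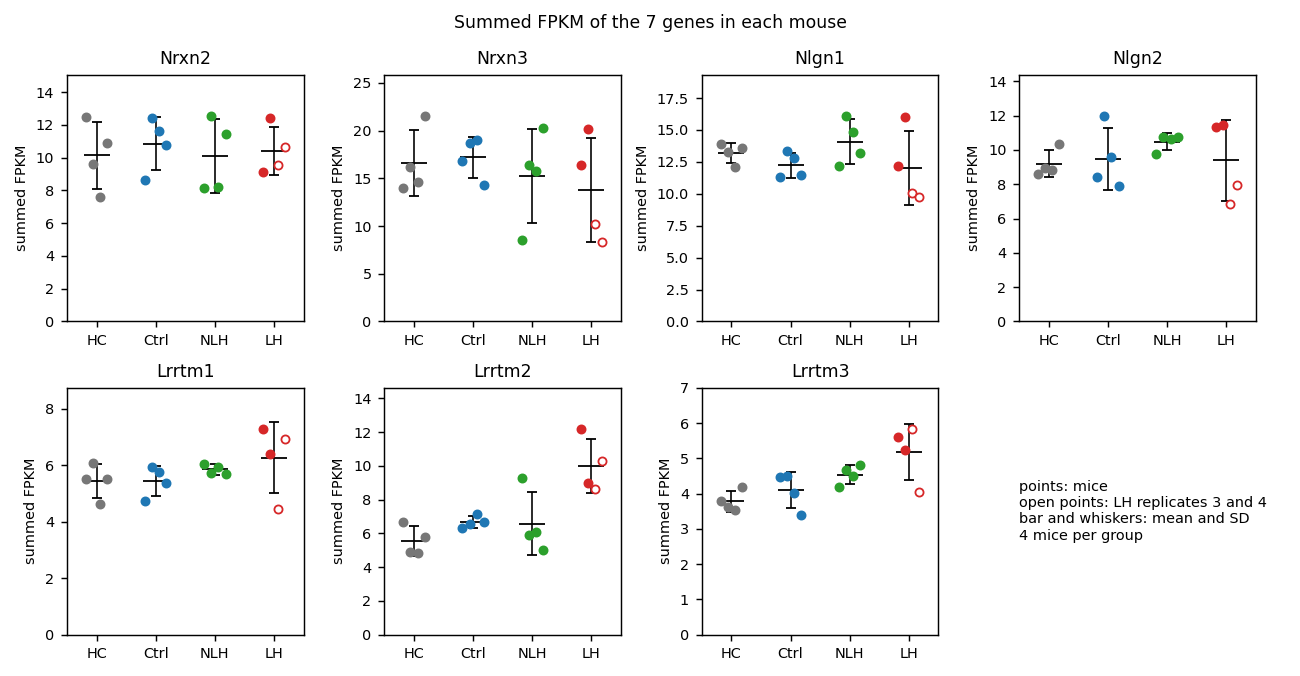
Summed FPKM of the 7 genes (vertical axis, from 0) in each mouse of the HC, Ctrl, NLH and LH groups, with the mean and SD of 4 mice as bar and whiskers and LH replicates 3 and 4 as open points. Lrrtm2 shows all 4 LH mice between 8.64 and 12.2 and all 4 Ctrl mice between 6.32 and 7.16, whereas LH and Ctrl overlap in the other 6 panels.

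The groups ask whether adhesion genes differed with handling, exposure to the shuttle box and the escape test, which Ctrl vs. HC does not separate. They also ask about inescapable shock that left escape intact (NLH vs. Ctrl) and about helplessness after the same shocks (LH vs. NLH). LH vs. Ctrl combines inescapable shock with helplessness and does not separate them. No gene sum passed the adjusted threshold of 0.05 in any of the 4 comparisons (limma, Benjamini-Hochberg over 18287 gene names). Of all gene names, 0% passed it in Ctrl vs. HC, 0.00547% in NLH vs. Ctrl, 0% in LH vs. Ctrl and 0.0109% for LH against NLH. That background depended on the scaling and on LH replicates 3 and 4: in LH vs. Ctrl, 512 gene names passed with median-ratio size factors and 989 without these mice, and the count of the 7 genes was 0 in both. At an unadjusted p under 0.05 there were 0 of 7 in Ctrl vs. HC, where 2.70% of all gene names passed, and 0 of 7 in NLH vs. Ctrl, where 5.59% passed. LH vs. Ctrl gave 2 of 7, both higher in LH, beside 11.5% of all gene names and 7.03% in this direction. The latter share was 13.6% with size factors and 22.4% without LH replicates 3 and 4. LH vs. NLH gave 1 of 7, higher in LH, beside 7.54% and 2.75%. The median log2 difference of the 7 genes was 0.06 in Ctrl vs. HC, 0.11 in NLH vs. Ctrl, -0.03 in LH vs. Ctrl and 0.06 for LH against NLH. Over all gene names it was 0.02, 0.06, 0.00 and -0.06. All 4 comparisons share groups of mice with others, so that their values are not independent of each other.

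Lrrtm2, a postsynaptic neurexin ligand of excitatory synapses that helps to hold AMPA receptors, had the largest difference of the gene sums in both LH comparisons. Its sum was 6.71, 4.88, 4.85 and 5.79 FPKM in the HC mice and 6.32, 6.56, 7.16 and 6.67 FPKM in the Ctrl mice. It was 9.29, 5.89, 6.11 and 5.04 FPKM in the NLH mice and 12.2, 8.96, 8.64 and 10.3 FPKM in the LH mice. All LH mice lay above all Ctrl mice, as they did for 4.05% of all gene names, and NLH replicate 1 lay within the LH range. The mean was 10.0 ± 1.61 FPKM in LH and 6.68 ± 0.355 FPKM in Ctrl (SD, n = 4), a log2 difference of 0.57 (SE 0.17, adjusted p = 0.209), or 1.48-fold. The two-sided exact permutation test over mice gave p = 0.0286, the smallest that 4 mice against 4 allow, and 0.629 after adjustment over the 28 gene comparisons. Against NLH, at 6.58 ± 1.87 FPKM, the log2 difference was 0.62 (SE 0.17, adjusted p = 0.374). Without LH replicates 3 and 4 the log2 differences were 0.64 (adjusted p = 0.0770) and 0.70 (adjusted p = 0.183). When NLH replicate 1, the highest NLH mouse, was left out, LH vs. NLH was 0.80 (SE 0.14, adjusted p = 0.0567), short of the threshold. The single transcript Lrrtm2-201, with the same values, had an adjusted p of 0.0336 there, as p was adjusted over transcripts rather than gene names. NLH against Ctrl was -0.06 (SE 0.17) and Ctrl against HC 0.27 (SE 0.17, adjusted p = 1.00).

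Lrrtm3, another LRRTM, had the lowest level of the 7 genes. Its sum was 3.78, 3.63, 3.53 and 4.18 FPKM in HC, 4.48, 4.51, 4.03 and 3.4 FPKM in Ctrl, 4.19, 4.67, 4.49 and 4.80 FPKM in NLH, and 5.61, 5.25, 5.83 and 4.05 FPKM in LH. LH replicate 4 lay within the Ctrl range and the other 3 LH mice above it. The log2 difference of LH vs. Ctrl was 0.32 (SE 0.13, adjusted p = 0.355), and that of LH vs. NLH was 0.18 (SE 0.13, adjusted p = 0.772). Without LH replicates 3 and 4 they were 0.40 (adjusted p = 0.0714) and 0.25 (adjusted p = 0.344), beside medians of 0.195 and 0.130 for all gene names. Lrrtm1, the third LRRTM, held 7.29, 6.40, 4.46 and 6.94 FPKM in LH and 4.75, 5.93, 5.77 and 5.37 FPKM in Ctrl. These ranges overlapped, with LH replicate 3 below all Ctrl mice (log2 difference 0.18, SE 0.14, adjusted p = 0.665). Without LH replicates 3 and 4 it was 0.33 (adjusted p = 0.118).

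The 3 LRRTM genes lie within genes of alpha catenins, which link cadherins to actin: Lrrtm1 within Ctnna2, Lrrtm2 within Ctnna1 and Lrrtm3 within Ctnna3, each on the opposite strand. The sources used here do not say whether strand was used in counting, so that reads of host and guest cannot be told apart where they overlap. Shared exon bases were 0 of 3033 for Lrrtm1, 95 of 6022 for Lrrtm2 and 0 of 4251 for Lrrtm3. Ctnna1, the host of Lrrtm2, was 5.18 ± 1.73 FPKM in LH, 4.99 ± 0.957 in NLH and 4.06 ± 0.383 in Ctrl (SD, n = 4). LH differed from Ctrl by 0.28 on the log2 scale (SE 0.21, adjusted p = 0.642) and from NLH by 0.01 (SE 0.21, adjusted p = 1.00). The part of intronic RNA of Ctnna1 in the Lrrtm2 values was not tested.

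Neuroligins did not separate the groups at the level of the gene. Nlgn1 was 13.9, 13.3, 12.1 and 13.6 FPKM in HC, 11.3, 13.4, 12.8 and 11.5 FPKM in Ctrl, 12.2, 16.1, 14.9 and 13.2 FPKM in NLH and 12.2, 16, 10.1 and 9.72 FPKM in LH. The log2 difference of LH vs. Ctrl was -0.05 (SE 0.14) with all mice and 0.19 without LH replicates 3 and 4, which held the lowest values of all 16 mice. Nlgn2, the neuroligin of inhibitory synapses, was 8.60, 8.95, 8.85 and 10.4 FPKM in HC, 8.41, 12.0, 9.61 and 7.91 FPKM in Ctrl, 9.77, 10.8, 10.6 and 10.8 FPKM in NLH and 11.4, 11.4, 6.86 and 7.93 FPKM in LH. LH replicates 1 and 2 lay above NLH, and LH replicates 3 and 4 below it. Its log2 difference of LH vs. Ctrl was -0.03 (SE 0.16) with all mice and 0.28 (adjusted p = 0.222) without those 2, beside a median of 0.195 for all gene names in the same fit.

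Neurexin sums overlapped in all comparisons. Nrxn2 was 12.4, 9.62, 7.58 and 10.9 FPKM in HC, 8.63, 12.4, 11.6 and 10.8 FPKM in Ctrl, 8.15, 12.6, 8.20 and 11.4 FPKM in NLH and 9.12, 12.4, 9.52 and 10.6 FPKM in LH. The spread within each group exceeded every difference between groups, the largest of which was -0.12 on the log2 scale (SE 0.18, NLH vs. Ctrl). Nrxn3 was 14.0, 16.2, 14.6 and 21.6 FPKM in HC, 16.8, 18.7, 19.0 and 14.3 FPKM in Ctrl, 8.56, 16.4, 15.7 and 20.3 FPKM in NLH and 16.4, 20.2, 10.2 and 8.31 FPKM in LH. Low values were those of NLH replicate 1 and LH replicates 3 and 4. LH vs. Ctrl was -0.40 (SE 0.27, adjusted p = 0.617) and turned to 0.09 without LH replicates 3 and 4.

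**Figure D2:**
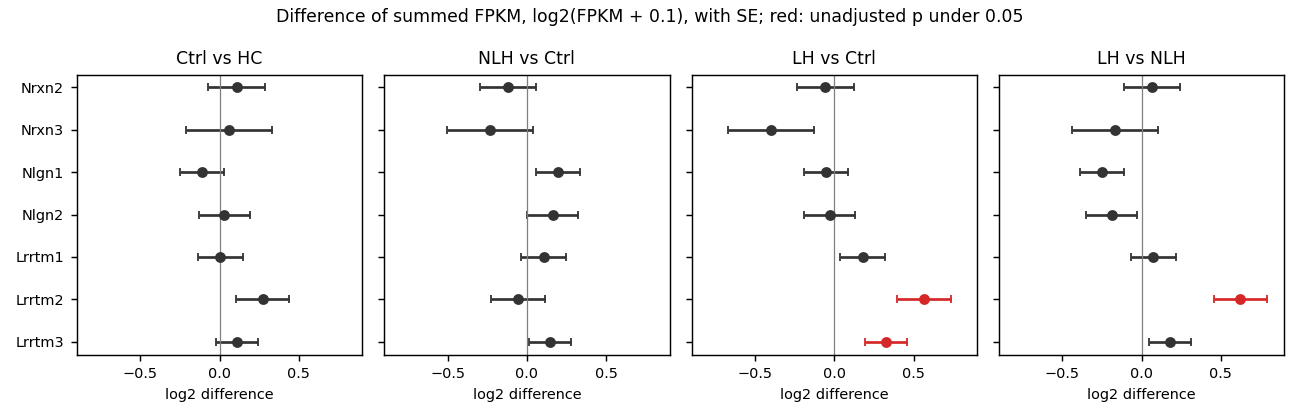
Log2 difference of summed FPKM (horizontal axis, log2(FPKM + 0.1)) for each of the 7 genes in the 4 comparisons, with the standard error of limma as whiskers and unadjusted p under 0.05 in red. Red points are Lrrtm2 at 0.57 and Lrrtm3 at 0.32 in LH vs. Ctrl and Lrrtm2 at 0.62 in LH vs. NLH, and none of them passed the adjusted threshold.

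Single transcripts were compared next, since the table is one of transcripts. No transcript of the 42 passed the adjusted threshold in any comparison (limma, over 80137 transcripts), and neither did the share of a transcript in its gene for the 41 transcripts of genes with several. Of all transcripts, 0.00374% passed in Ctrl vs. HC, 0.0125% in NLH vs. Ctrl, 0.0462% in LH vs. Ctrl and 0.0412% for LH against NLH, and of all shares 0.00369%, 0.0111%, 0.0351% and 0.0461%. At an unadjusted p under 0.05 there were 3 of 42 in Ctrl vs. HC (3.45% of all transcripts), 2 in NLH vs. Ctrl (5.12%), 9 in LH vs. Ctrl (10.7%) and 5 for LH against NLH (8.72%). In Ctrl vs. HC, 1 was higher (1.90% of all) and 2 lower (1.55%), and in NLH vs. Ctrl both were lower (2.10%). Of the 9, 4 were higher in LH (4.16% of all transcripts) and 5 lower (6.54%). The balance over all transcripts was the other way without LH replicates 3 and 4, with 9.58% higher and 4.67% lower, and with size factors it was 5.89% and 6.05%. The adjusted count over all transcripts was 37 with all mice, 133 with size factors and 331 without these mice. Of the 5, 2 were higher (2.98%) and 3 lower (5.74%). Groups that did not overlap are a further count. In Ctrl vs. HC, 1 of 42 was higher in every Ctrl mouse (2.53% of all). In NLH vs. Ctrl, 2 were higher (2.88%) and 1 lower (2.14%). In LH vs. Ctrl, 5 were higher (2.34%) and 1 lower (3.52%), and in LH vs. NLH 1 was higher (0.933%) and 1 lower (2.25%). Of these, Lrrtm1-203 and Nrxn3-212 separated on values near 0. For shares the counts were 3 of 41 in Ctrl vs. HC (3.33% of all), 2 in NLH vs. Ctrl (4.89%), 7 in LH vs. Ctrl (10.5%) and 5 for LH against NLH (9.36%). Transcripts of 1 gene share its reads, and the software divides the reads among them, so that their values are not independent.

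Nlgn1 held the smallest p of all member transcripts. The coding transcripts Nlgn1-201 (ENSMUST00000075054.9, 4359 bases) and Nlgn1-202 (ENSMUST00000108308.9, 4272 bases) start at the same base and differ in length by the 60 and 27 bases of the A and B inserts, which Nlgn1-201 has and Nlgn1-202 lacks. Nlgn1-203 (ENSMUST00000191835.1) also lacks both inserts and starts at another first exon, whereas Nlgn1-205 (ENSMUST00000193603.5) has both and is the longest at 11807 bases. Nlgn1-204 retains an intron and has no coding sequence in the annotation.

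Nlgn1-202 was highest in the LH mice. It was 2.39, 2.44, 3.79 and 1.43 FPKM in HC, 1.27, 2.27, 1.29 and 2.48 FPKM in Ctrl, 3.90, 2.72, 1.89 and 1.99 FPKM in NLH and 5.12, 4.38, 6.69 and 6.36 FPKM in LH. All LH mice lay above every mouse of the other groups. LH exceeded Ctrl by 1.61 on the log2 scale (SE 0.30, 3.06-fold, adjusted p = 0.0839). The difference from NLH was 1.11 (SE 0.30, 2.16-fold, adjusted p = 0.314). The exact permutation test gave p = 0.0286 in both, and 0.457 after adjustment over 168 transcript comparisons. It passed the adjusted threshold of LH vs. Ctrl when transcripts averaging under 1 FPKM were left out (adjusted p = 0.0453) and when LH replicate 2 was left out (adjusted p = 0.0424). Without LH replicates 3 and 4 the log2 difference was 1.38 from Ctrl (adjusted p = 0.116) and 0.88 from NLH (adjusted p = 0.419).

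Nlgn1-203 and Nlgn1-201 were lower in LH on average. Nlgn1-203 was 4.13, 3.63, 4.87 and 3.28 FPKM in Ctrl, 2.39, 6.04, 5.59 and 4.57 FPKM in NLH and 1.15, 3.68, under 0.001 and 1.53 FPKM in LH. It was near 0 in LH replicate 3, and only LH replicate 2 lay within the Ctrl range (log2 difference -2.11, SE 0.76, adjusted p = 0.350). Without LH replicates 3 and 4 it was -0.89 (adjusted p = 0.346). Nlgn1-201 was 3.71, 3.72, 3.85 and 2.97 FPKM in Ctrl, 3.38, 4.15, 3.77 and 3.68 FPKM in NLH and 3.26, 3.32, 1.47 and under 0.001 FPKM in LH. All LH mice lay below all NLH mice. The log2 difference of LH vs. NLH, -1.73 (SE 0.79, adjusted p = 0.563), was -0.18 without LH replicates 3 and 4. Nlgn1-205, named here after its values were seen, was 1.01, 0.662, 0.284 and 0.759 FPKM in HC, 0.827, 0.756, 0.721 and 0.837 FPKM in Ctrl and 0.273, 0.251, 0.0694 and 0.147 FPKM in NLH. In LH it was 0.972, 1.05 and 0.986 FPKM in replicates 1, 2 and 3, above every Ctrl mouse, and under 0.001 FPKM in replicate 4. All NLH mice lay below all Ctrl mice (NLH vs. Ctrl log2 difference -1.70, SE 0.64, adjusted p = 0.862).

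Within the pair Nlgn1-201 and Nlgn1-202, which differ by the inserts alone, the percentage without inserts was 34.6, 45.4, 60.1 and 24.2 in HC, 25.6, 37.9, 25.2 and 45.6 in Ctrl, 53.6, 39.6, 33.4 and 35.1 in NLH and 61.1, 56.8, 81.9 and 100 in LH. The LH mice lay above the Ctrl and NLH mice, and HC replicate 3 lay within the LH range. This pair was formed after its values were seen and was not tested. Over all 4 coding transcripts, the percentage of FPKM with both inserts was 47.2, 34.1, 28.8 and 49.3 in HC, 45.6, 43.1, 42.6 and 39.8 in Ctrl, 36.7, 33.4, 33.9 and 36.9 in NLH and 40.3, 35.1, 26.9 and under 0.001 in LH. All NLH mice lay below all Ctrl mice, at 35.2% against 42.8% (exact permutation p = 0.0286, 0.381 after adjustment over 20 class comparisons), and LH replicate 1 lay within the Ctrl range (p = 0.0571 and 0.381 by the same exact test). The mean difference of LH from Ctrl was -17.2 points with all mice and -5.05 without LH replicates 3 and 4, and that of LH from NLH turned from -9.66 to 2.48 points. The HC mice spanned from below to above the Ctrl range. In FPKM, transcripts without the inserts summed to 6.16, 6.95, 6.90 and 5.40 in HC, 5.40, 5.90, 6.17 and 5.77 in Ctrl, 6.29, 8.75, 7.48 and 6.56 in NLH and 6.27, 8.06, 6.69 and 7.89 in LH. Both NLH and LH lay above Ctrl in every mouse, by ratios of 1.25 and 1.24 (exact permutation p = 0.0286 each, 0.381 after adjustment over 80).

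**Figure D3:**
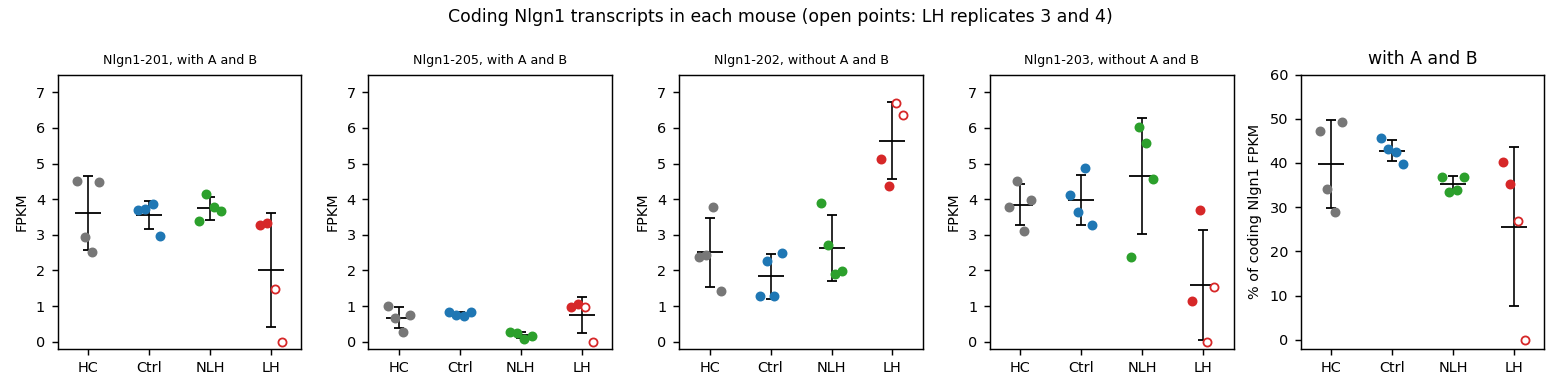
FPKM of the 4 coding Nlgn1 transcripts and, in the last panel, the percentage of coding Nlgn1 FPKM with the A and B inserts, per mouse and group (bar and whiskers, mean and SD of 4 mice, open points LH replicates 3 and 4). Nlgn1-202 lies between 4.38 and 6.69 in LH and at or below 3.90 in every other mouse, and the percentage lies between 33.4 and 36.9 in NLH and between 39.8 and 45.6 in Ctrl.

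Nlgn2 has 2 coding transcripts of equal coding length that start at different first exons. Nlgn2-201 held 83.7% of the Nlgn2 FPKM and was 7.98, 8.92, 9.13 and 7.90 FPKM in Ctrl, 7.54, 9.28, 9.48 and 9.13 FPKM in NLH and 7.45, 9.62, 6.86 and 3.45 FPKM in LH, with LH replicate 4 lowest of all mice. Nlgn2-202 was 0.428, 3.08, 0.473 and 0.00333 FPKM in Ctrl, 2.23, 1.49, 1.15 and 1.63 FPKM in NLH and 3.90, 1.82, under 0.001 and 4.48 FPKM in LH. Neither separated the groups in any comparison, and the log2 differences of LH vs. Ctrl were -0.39 (SE 0.22, adjusted p = 0.559) and 1.29 (SE 1.22, adjusted p = 0.705).

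The splits between Nlgn1 transcripts cover the named part of the locus. The table also lists assembled transcripts at Nlgn1 that carry no gene name and whose structure is not used here, and they held 46.9% to 65.3% of the FPKM of the locus in each mouse. The same part was 47.5% to 66.2% for Nrxn2, 55.4% to 79.3% for Nrxn3, 10.0% to 45.9% for Nlgn2, 2.17% to 39.0% for Lrrtm1 and 0 for Lrrtm2 and Lrrtm3. When they were added, the Nlgn1 locus was 26.7, 27.7, 26.9 and 26.0 FPKM in Ctrl, 28.6, 30.6, 28.8 and 28.0 FPKM in NLH and 27.7, 30.2, 26.7 and 28.0 FPKM in LH. All NLH mice then lay above all Ctrl mice (exact permutation p = 0.0286, 0.400 after adjustment over 28), and LH vs. Ctrl was 0.07 on the log2 scale. An antisense gene, A830092H15Rik, shares 1229 of the 13422 exon bases of Nlgn1, and was 1.03 ± 0.969 FPKM in LH and 0.830 ± 0.482 in Ctrl (adjusted p = 0.954, limma).

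Neurexin transcripts were grouped by the annotation into long (alpha, coding sequence of at least 3000 bases) and short (beta) forms. Nrxn3 had 5 long and 2 short transcripts, and Nrxn2 had 4 long and 2 short ones beside 1 coding fragment. Noncoding transcripts of the annotation made up 64.5% to 82.8% of the Nrxn2 sum and 24.6% to 51.5% of the Nrxn3 sum in each mouse. Nrxn2-214, a processed transcript of 604 bases, was the most abundant Nrxn2 entry at 2.83 ± 1.09 FPKM (SD, n = 16). Among long and short forms, the short percentage of Nrxn2 was 55.2, 39.1, 44.5 and 37.3 in HC, 37.6, 49.0, 39.3 and 36.0 in Ctrl, 34.5, 51.2, 48.7 and 39.0 in NLH and 34.5, 46.5, 65.8 and 53.1 in LH. That of Nrxn3 was 35.9, 45.3, 39.8 and 32.7 in HC, 30.5, 29.1, 30.6 and 35.5 in Ctrl, 45.7, 27.4, 36.6 and 27.7 in NLH and 33.5, 23.4, 42.7 and 62.1 in LH. Groups overlapped for both genes in every comparison, and the smallest p was that of Nrxn3 in Ctrl vs. HC, with 31.4% against 38.4% (exact permutation p = 0.0571, 0.381 after adjustment over 20).

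**Figure D4:**
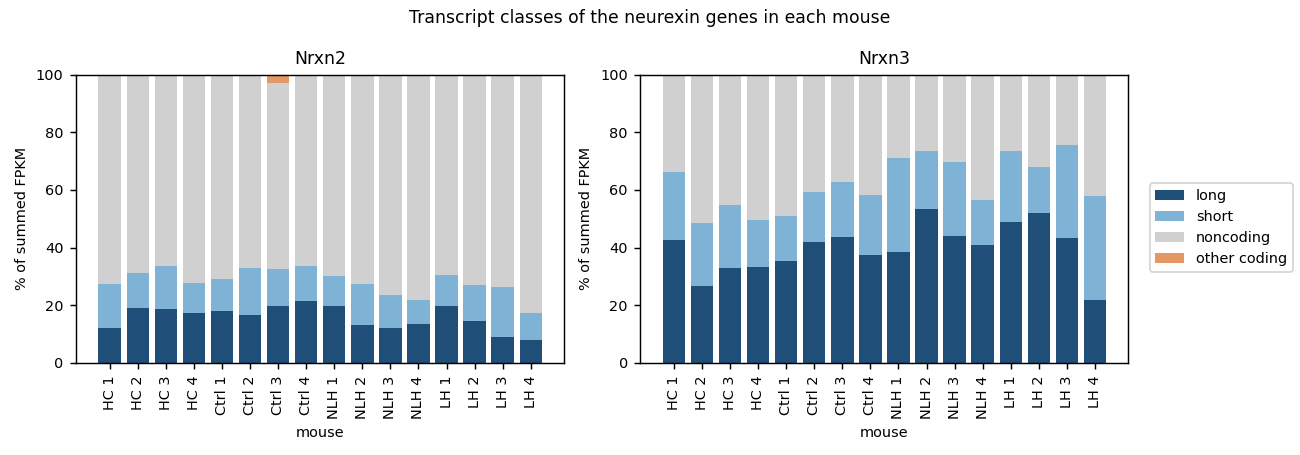
Percentage of the summed FPKM (vertical axis) of Nrxn2 and Nrxn3 in long, short, noncoding and other coding transcripts for each of the 16 mice (horizontal axis). Noncoding entries hold 64.5% to 82.8% of Nrxn2 and 24.6% to 51.5% of Nrxn3.

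Most neurexin RNA that spans SS4 was of transcripts with the exon, the form that cerebellins bind. Of Nrxn2, 91.0, 91.1, 74.7 and 85.7% had it in HC, 76.5, 77.4, 83.3 and 89.4% in Ctrl, 84.5, 87.6, 94.9 and 85.8% in NLH and 77.6, 89.2, 96.9 and 100% in LH. Of Nrxn3, 80.3, 94.8, 80.2 and 84.6% had it in HC, 83.6, 82.3, 82.0 and 92.6% in Ctrl, 92.1, 87.9, 86.8 and 82.0% in NLH and 84.9, 92.3, 73.7 and 100% in LH. No comparison separated the groups. In LH replicate 4 the transcripts without the exon were near 0 for both genes, at the low end of a library with many transcripts at 0. The Nrxn2 transcripts without the exon summed to 0.632 FPKM in Ctrl and 0.315 FPKM in NLH on average (exact permutation p = 0.0571, 0.508 after adjustment over 80), with 1 of 16 pairs of mice in the other order.

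**Figure D5:**
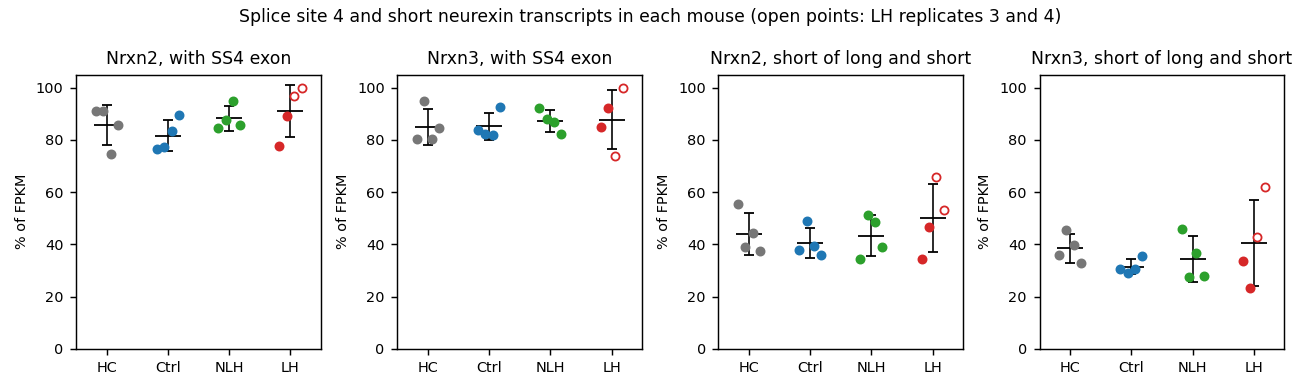
Percentage of Nrxn2 and Nrxn3 FPKM with the SS4 exon, among transcripts that span the site, and percentage of short transcripts among long and short ones, per mouse and group (bar and whiskers, mean and SD of 4 mice, open points LH replicates 3 and 4). The SS4 percentages lie between 73.7 and 100 in all mice, and all groups overlap in the 4 panels.

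The neurexin transcripts with the lowest p were noncoding entries at the upstream end of Nrxn3. Nrxn3-204 (ENSMUST00000110138.7, retained intron) was 1.34, 1.41, 0.758 and 2.06 FPKM in HC and 1.18, 1.81, 2.35 and 1.83 FPKM in Ctrl. It was 1.32 FPKM in NLH replicate 4 and under 0.001 FPKM in the other NLH mice. In LH it was 0.257 and 0.775 FPKM in replicates 2 and 4 and under 0.001 FPKM in replicates 1 and 3. All LH mice lay below all Ctrl mice. LH differed from Ctrl by -2.96 on the log2 scale (SE 0.83, adjusted p = 0.220) and NLH from Ctrl by -3.25 (SE 0.83, adjusted p = 0.431). The latter passed the adjusted threshold without NLH replicate 4 (adjusted p = 0.0443). Nrxn3-206 (ENSMUST00000163944.1, processed transcript) was 0.994, 3.4, 4.15 and 4.34 FPKM in HC, 5.32, 3.42, 3.88 and 2.56 FPKM in Ctrl, 0.504, 1.70, 2.66 and 2.55 FPKM in NLH and 0.847 and 3.63 FPKM in LH replicates 1 and 2, with LH replicates 3 and 4 under 0.001 FPKM. LH replicate 2 lay within the Ctrl range. The log2 difference of LH vs. Ctrl was -3.12 (SE 0.95, adjusted p = 0.265), passed the adjusted threshold without LH replicate 2 (adjusted p = 0.0371) and was -1.0 without LH replicates 3 and 4 (adjusted p = 0.606).

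The third was Nrxn3-208, a long transcript with the SS4 exon that is marked for nonsense-mediated decay. It was 0.734, 1.97, 2.17 and 0.975 FPKM in Ctrl and 1.72 and 0.845 FPKM in LH replicates 2 and 4, and under 0.001 FPKM in LH replicates 1 and 3 (log2 difference -1.98, SE 0.82, adjusted p = 0.412). The main coding forms of Nrxn3 overlapped between Ctrl and LH. Nrxn3-201, the main long form, was 4.58, 4.47, 4.89 and 3.79 FPKM in Ctrl and 3.52, 6.13, 2.51 and 0.982 FPKM in LH. Nrxn3-202, the main short form, was 1.85, 2.47, 2.41 and 2.97 FPKM in Ctrl and 3.33, 2.49, 3.00 and 2.99 FPKM in LH. Protein coding transcripts made up 52.3, 38.1, 45.4 and 38.2% of the Nrxn3 sum in HC, 63.1, 54.9, 56.4 and 39.0% in NLH, 42.7, 42.3, 46.7 and 47.2% in Ctrl and 66.5, 57.7, 58.5 and 47.8% in LH. All LH mice lay above all Ctrl mice (exact permutation p = 0.0286, 0.533 after adjustment over 56). In Nrxn2, Nrxn2-204, a long form without the SS4 exon, was 0.380, 0.689, 0.449 and 0.244 FPKM in Ctrl and 0.488 and 0.209 FPKM in LH replicates 1 and 2, and under 0.001 FPKM in LH replicates 3 and 4 (log2 difference -1.33, SE 0.61, adjusted p = 0.462), and the difference was -0.28 without LH replicates 3 and 4.

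Of the LRRTM transcripts, Lrrtm2-201 is the whole of its gene. Lrrtm3-201, the only coding Lrrtm3 transcript, was 2.48, 1.76, 2.33 and 2.06 FPKM in HC, 2.53, 2.43, 2.32 and 2.12 FPKM in Ctrl, 2.80, 2.87, 2.96 and 2.82 FPKM in NLH and 3.96, 2.85, 3.48 and 2.68 FPKM in LH. All NLH and all LH mice lay above all Ctrl mice, the form of separation that 2.88% and 2.34% of all transcripts showed in these comparisons. The log2 difference of LH vs. Ctrl was 0.43 (SE 0.14, adjusted p = 0.285). Lrrtm3-204, which retains an intron and held 36.6% of the Lrrtm3 FPKM, was 1.38, 2.08, 1.34 and 1.29 FPKM in Ctrl and 1.37, 2.01, 2.17 and 1.25 FPKM in LH.

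In Ctrl vs. HC, 2 Lrrtm1 transcripts of equal coding length differed in opposite directions at an unadjusted p under 0.05. Lrrtm1-202, classed as coding, was 3.87, 3.02, 1.86 and 4.39 FPKM in HC and 4.43, 4.64, 5.74 and 4.86 FPKM in Ctrl, and all Ctrl mice lay above all HC mice (log2 difference 0.63, SE 0.26, adjusted p = 1.00). Lrrtm1-201, classed as a target of nonsense-mediated decay, was 1.65, 2.77, 2.76 and 1.14 FPKM in HC and 0.316, 1.29, 0.0263 and 0.508 FPKM in Ctrl (log2 difference -2.16, SE 0.90, adjusted p = 1.00). The third transcript with an unadjusted p under 0.05 in this comparison was Nrxn3-212, named after its values were seen, a noncoding entry at 0.605, 0.581 and 1.23 FPKM in HC replicates 1, 2 and 4 and under 0.001 FPKM in HC replicate 3 and all Ctrl mice. Lrrtm1-203 was 1.56 and 1.21 FPKM in LH replicates 3 and 4 and under 0.001 FPKM in the other LH mice and in Ctrl. Its log2 difference of 1.94 (SE 0.82, adjusted p = 0.420) came from LH replicates 3 and 4 and was 0.00 without them.

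The genes around these adhesion proteins were read from 4 lists. None of their measured members passed the adjusted threshold in any comparison (limma). Among 22 measured presynaptic partners and secreted ligands, 3 were higher in LH than in Ctrl and none lower at an unadjusted p under 0.05, where 7.03% of all gene names were higher and 4.49% lower. The smallest p of the list belonged in LH vs. Ctrl to Lin7a, an adaptor of the CASK complex that binds neurexin tails, at 6.85 ± 1.10 against 5.26 ± 0.182 FPKM (log2 difference 0.36, SE 0.12, adjusted p = 0.233). Among 15 measured postsynaptic partners, 2 were higher in LH than in Ctrl and 0 lower, beside the same shares of all gene names. The smallest p was that of Dlg2, the scaffold protein PSD-93, at 47.5 ± 7.26 against 37.6 ± 2.17 FPKM (0.33, SE 0.11, adjusted p = 0.262). In LH vs. NLH it was Lrrtm4, the fourth LRRTM, at 13.1 ± 1.07 in LH, 9.96 ± 1.35 in NLH and 12.0 ± 0.943 FPKM in Ctrl (0.39, SE 0.12, adjusted p = 0.450).

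The list of neurexin splicing factors and sheddase had 4 genes, of which 3 were higher in LH than in Ctrl at an unadjusted p under 0.05, beside 7.03% of all gene names. The smallest p was that of Khdrbs3, which encodes the splicing factor T-STAR (SLM2) known to act on the SS4 exon. Khdrbs3 was 24.3 ± 3.51 FPKM in LH, 22.9 ± 2.64 in NLH and 17.9 ± 0.459 in Ctrl (SD, n = 4). The log2 difference was 0.43 in LH vs. Ctrl (SE 0.11, adjusted p = 0.139) and 0.34 in NLH vs. Ctrl (SE 0.11, adjusted p = 0.589). In NLH vs. Ctrl the list had 1 higher and 1 lower gene at the unadjusted threshold. The lower one was Khdrbs2, which encodes the related factor SLM1, at 2.06 ± 1.61 FPKM in NLH and 2.98 ± 0.503 FPKM in Ctrl (log2 difference -0.74, SE 0.34, adjusted p = 0.869). In LH vs. Ctrl its log2 difference was -0.25 (SE 0.34, adjusted p = 0.819). Among 17 other synaptic adhesion genes, 0 had higher and 1 had lower values in LH at the unadjusted threshold, beside 7.03% and 4.49% of all gene names. The 1 gene was Ntng2, which encodes netrin-G2, at 1.12 ± 0.498 FPKM in LH and 1.74 ± 0.343 FPKM in Ctrl (log2 difference -0.67, SE 0.30, adjusted p = 0.407). The median log2 difference of LH vs. Ctrl was 0.04, 0.12, 0.34 and 0.09 over the 4 lists and 0.00 over all gene names.

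Marker genes of neighbouring tissue and of neurons were read beside these results. The 5 choroid plexus markers all had values, and their sum was 2.57 to 91.6 FPKM in LH (median 43.0), 17.2 to 51.6 in Ctrl, 4.20 to 64.4 in NLH and 3.13 to 39.0 in HC. The 5 striatal markers summed to 3.34 to 5.94 FPKM in LH (median 5.82), 3.61 to 3.86 in Ctrl, 3.56 to 5.72 in NLH and 3.62 to 3.96 in HC. No marker of these 2 lists was below 0.1 FPKM in all mice. The 5 neuronal markers summed to 502 to 667 FPKM in LH (median 599), 520 to 561 in Ctrl (median 540), 533 to 617 in NLH and 504 to 534 in HC. Snap25, a synaptic vesicle fusion protein with the highest values of the 5, was 378, 357, 338 and 287 FPKM in the LH mice and at most 316 FPKM in Ctrl. The neuronal sum was above every Ctrl mouse in LH replicates 1, 2 and 3, and so were Snap25, Syt1 and Stmn2 singly. The other neuronal markers went differently. Rbfox3 was 15.6, 20.9, 18.8 and 16.7 FPKM in LH and 18.8, 21.4, 25.2 and 20.9 FPKM in Ctrl. Map2 was 78.0, 75.5, 57.2 and 56.2 FPKM in LH and 65.3, 70.5, 75.4 and 59.3 FPKM in Ctrl. The part of these markers in the results was not tested.

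Over the 16 mice, the gene with the most similar course to each member was taken as the one with the smallest root mean square difference of log2(FPKM + 0.1), each gene centred on its own mean, among 10436 genes with a mean of at least 1 FPKM. It was Cbx3 for Lrrtm2 (0.134 on the log2 scale, where Lrrtm2 itself varied by 0.376 about its mean), Pgap1 for Lrrtm3 (0.113) and H13 for Lrrtm1 (0.104). For the neuroligins it was Gng13 for Nlgn1 (0.0772) and Rab15 for Nlgn2 (0.0987), and for the neurexins Nfix for Nrxn2 (0.140) and Mcm6 for Nrxn3 (0.148). None of these is a member or a gene of the 4 lists.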

How the data were processed

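Hippocampal total RNA was sequenced from 16 mice, 4 in each of 4 groups taken from the sample labels. The deposited table holds FPKM per transcript, made by the authors before deposition. The study's methods name HISAT2, StringTie 1.2.3 and Cufflinks on mm10, whereas the submitters' processing notes name STAR 2.42a and StringTie 1.2.3. Which of these tools made the FPKM values was not resolved. Read counts and strand use are not given in the sources used here, so that no count test was run, and depth was estimated. Transcripts matched GENCODE vM21. FPKM was summed over the transcripts of a gene name. Differences were tested on log2(FPKM + 0.1), which understates changes of low values, with limma 3.58.1 (4 group means, trend and robust options, R 4.3.3) over all genes or transcripts, with Benjamini-Hochberg adjustment. Every limma p and adjusted p in the text comes from these fits. Single values were also tested by two-sided exact permutation of mice. These p-values set a difference between groups against the variation between mice. The fit was tested on simulated data.

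Named transcripts held at least 10% of their gene or had the smallest p of their gene in LH vs. Ctrl or LH vs. NLH. Named list genes had the smallest p of their list in the comparisons described, apart from Khdrbs2. That gene was the one of its list lower in NLH vs. Ctrl at the unadjusted threshold. Some items are not reported here. The members and lists were chosen with earlier results of these data known. Same-numbered mice of different groups had a median correlation of deviations of -0.00835 over 24 pairs (-0.0575 to 0.0874), so that numbers do not pair mice. Alternatives were added values of 0.01 and 1, a mean FPKM of at least 1, size factors, a replicate block and fits of 2 groups. Others were entries that the deposited table types as protein coding, the study's own test and leaving out mice. Assembled transcripts, and leaving out mice for the Nlgn1 insert percentage, were chosen after seeing the data.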

Additional observations from a re-analysis of the deposited data

Results flagged for a closer look

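Each value below stood apart from the other 3 mice of its group by Dixon's criterion at the 95% level. Of 140 groups examined 11 were marked, and chance marks about 1 in 20 groups, which is 7 of 140. Among gene sums, Nlgn2 was 9.77 FPKM in NLH replicate 1, below the next value of 10.6. Among Nlgn1 and Nlgn2 transcripts, Nlgn1-201 was 2.97 FPKM in Ctrl replicate 4, below the next value of 3.71, and Nlgn2-202 was 3.08 FPKM in Ctrl replicate 2, above the next value of 0.473. Among Nrxn3 transcripts, Nrxn3-202 was 3.76 FPKM in NLH replicate 3 (next 2.46) and Nrxn3-204 was 1.32 FPKM in NLH replicate 4 (next under 0.001). Nrxn3 with the SS4 exon was 92.6% in Ctrl replicate 4 (next 83.6%). Among Nrxn2 transcripts, Nrxn2-213 was 5.79 FPKM in LH replicate 4 (next 0.157) and Nrxn2-202 was 1.60 FPKM in NLH replicate 2 (next 0.879). Among LRRTM transcripts, Lrrtm3-203 was 0.291 FPKM in HC replicate 4 and Lrrtm1-203 was 0.281 FPKM in HC replicate 2, both with the next value under 0.001, and Lrrtm3-204 was 2.08 FPKM in Ctrl replicate 2 (next 1.38).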

How the results depend on the processing

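Over 43 member differences and all alternatives, 1030 of 1084 values kept their direction and side of the threshold. Another 38 had the other sign and 16 were newly past it, 12 of these only by the unadjusted p of the study's test and 4 by an adjusted p. Of the 1030 values, 28 came from entries typed as protein coding in the deposited table. It was not established that this type leaves out the noncoding entries, so these 28 do not show the effect of leaving them out. The replicate block changed no call (adjusted p of LH vs. Ctrl 0.207 for Lrrtm2 and 0.186 for Nlgn1-202), and numbers do not pair mice here. Members past the threshold were 0 in every comparison. At an unadjusted p, in the order Ctrl vs. HC, NLH vs. Ctrl, LH vs. Ctrl and LH vs. NLH, they were 0, 0, 2 and 1 genes, 3, 2, 9 and 5 transcripts, and 3, 2, 7 and 5 shares. With the study's unadjusted test on FPKM they were 0, 0, 1 and 1 genes, 3, 5, 7 and 3 transcripts, and 4, 4, 4 and 2 shares. Over the whole tables this test passed 8.5%, 9.57%, 8.01% and 3.5% of gene names, 6.68%, 7.20%, 7.69% and 4.47% of transcripts, and 5.32%, 6.42%, 7.10% and 5.04% of shares. At a mean FPKM of at least 1, 1 transcript (Nlgn1-202) passed in LH vs. Ctrl. Leaving out 1 mouse gave 0 to 1 transcripts in NLH vs. Ctrl (Nrxn3-204 without NLH replicate 4), 0 to 2 in LH vs. Ctrl (Nlgn1-202 and Nrxn3-206 without LH replicate 2), 0 to 1 in LH vs. NLH (Lrrtm2-201 without NLH replicate 1) and 0 to 2 shares in LH vs. Ctrl (without LH replicate 2).

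Other signs arose in gene sums, also in Nrxn3, which was -0.40 in LH vs. Ctrl with all mice, and the cause was not tested. With size factors, Lrrtm1 was -0.0126 in Ctrl vs. HC, and Nlgn1, Nlgn2 and Nrxn2 were 0.0247, 0.0485 and 0.0217 in LH vs. Ctrl. Without LH replicates 3 and 4, Nlgn1, Nlgn2 and Nrxn3 were 0.19, 0.28 and 0.0867 in LH vs. Ctrl, and Nlgn2 and Nrxn3 were 0.12 and 0.32 in LH vs. NLH, while the median of all gene names moved to 0.195 and 0.130. With assembled transcripts, Nrxn3 was -0.0486 in Ctrl vs. HC, Lrrtm1, Nlgn2 and Nrxn2 were -0.0129, -0.0628 and 0.0137 in NLH vs. Ctrl, Lrrtm1 and Nlgn1 were -0.0452 and 0.0664 in LH vs. Ctrl, and Lrrtm1 and Nrxn2 were -0.0322 and -0.0650 in LH vs. NLH.

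Leaving out 1 mouse, Ctrl vs. HC ranged from -0.0681 to 0.0696 for Lrrtm1, -0.0888 to 0.11 for Nlgn2, -0.0231 to 0.21 for Nrxn2 and -0.0124 to 0.19 for Nrxn3. NLH vs. Ctrl ranged from -0.23 to 0.0575 for Lrrtm2 and -0.39 to 0.0213 for Nrxn3. LH vs. Ctrl ranged from -0.20 to 0.0385 for Nlgn1, -0.13 to 0.11 for Nlgn2 and -0.16 to 0.0124 for Nrxn2. LH vs. NLH ranged from -0.00488 to 0.23 for Lrrtm1, -0.0293 to 0.18 for Nrxn2 and -0.42 to 0.0445 for Nrxn3. FPKM without counts limits the precision of low transcripts, and the division of reads among transcripts of 1 gene cannot be checked here.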
